A study of Apis mellifera with 12 samples.

Results

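The genes Vg, LOC408961 and A4, for proteins that carry lipid in the blood of the honeybee (Apis mellifera), were followed across castes and brain cells. Vg encodes vitellogenin, LOC408961 is annotated as apolipophorins, and A4 is known as an apolipophorin-III-like gene. They were matched by symbol or NCBI gene number, and all 3 members were found among the 11345 genes of the bulk matrix and among the 12292 features of the single-cell matrices. The series held adult brains of 3 kinds of females: queens, which were reared artificially and inseminated, and 2 kinds of workers from one colony, foragers with pollen on their hind legs and nurses that entered cells to feed larvae. Each caste had 2 bulk RNA-seq libraries, each made from 5 pooled brains, and 2 single-cell 3′ libraries of dissociated brains, also pooled. The bees carried no transgene or treatment, and because queens differed from workers in rearing and insemination as well as caste, these cannot be told apart here. With 2 pooled libraries per caste, every p-value measures the spread between pools.

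Vitellogenin is the yolk precursor of egg-laying insects, made mainly in the fat body (the insect counterpart of liver and adipose tissue), released into the hemolymph and taken up by the ovary. In honeybees it is also made by young workers, where it is tied to brood food, immunity and the juvenile hormone cycle. Apolipophorins are the large structural proteins of lipophorin, the reusable particle that moves diglyceride, sterols and hydrocarbons between tissues, and they belong to the same family of large lipid transfer proteins as vitellogenin. Apolipophorin-III is a small exchangeable protein that binds to lipophorin as it loads with lipid. In Drosophila, lipophorin made in the fat body reaches the brain and is handled there by glia at the blood-brain barrier.

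In the RefSeq annotation of assembly Amel_HAv3.1, the build also used for the deposited files, Vg lies on linkage group 4 at 5029485 to 5035661. LOC408961 lies on linkage group 8 at 5142758 to 5179126 and spans 36369 bases, and A4 lies on linkage group 2 at 15188032 to 15188900 and spans 869 bases. The members thus sit on different chromosomes, and each is a protein-coding gene with 1 annotated transcript. Levels of different genes were not compared in bulk because transcript lengths were not used here. In the 3′ single-cell data each UMI, a molecular barcode, stands for 1 captured transcript, so the members could be set against each other there.

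The bulk libraries held 13135057 to 15177035 expected counts each, and the single-cell libraries held 16761 to 20988 cells after filtering, with median depths of 4531.5 to 5729 UMIs per cell. Each pair of single-cell libraries shared 126 to 217 cell barcodes. Markers of worker glands differed strongly between castes in bulk: the summed level of 10 gland genes was 729 and 1033 CPM (counts scaled to a common library total) in queen libraries 1 and 2, against 31250 and 115626 CPM in forager libraries 1 and 2 and 419195 and 263822 CPM in nurse libraries 1 and 2. The bulk library nurse 2 stood apart from the other workers in Vg and in some hexamerins, storage proteins of the fat body. These were Hex70a and Hex110, but not Hex70b or Hex70c. The Vg and Hex70a differences are given below with and without nurse 2. The neuron marker elav was found in nearly every cell, and in the largest glia-like cluster its log2 level relative to the remaining cells was only -0.72, so a single UMI in a cell is weak evidence that the cell made the transcript.

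Whole brains of queens held far more transcript of every member than whole brains of workers. Vg had 942472 and 820830 expected counts in queen libraries 1 and 2, against 706 and 912 in foragers and 946 and 7929 in nurses. The queen libraries were far above every worker library, and Vg alone made up 6.58% and 5.75% of all counts in queens 1 and 2. After TMM scaling these were 60890 and 53244 scaled CPM in queens, against 43.3 and 63.5 in foragers and 87.4 and 601 in nurses. The log2 change between queens and workers was 8.72 ± 0.80 (SE), with an adjusted p of 3.42e-04 in edgeR's quasi-likelihood test. Without nurse 2 the change was 9.70.

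LOC408961, the precursor of the lipophorin particle's structural proteins, had 113343 and 121478 expected counts in queens, against 14494 and 12714 in foragers and 12067 and 14715 in nurses. The scaled levels were 7323 and 7880 scaled CPM in queens, against 890 and 885 in foragers and 1114 and 1116 in nurses. Queens did not overlap with workers, and the pair of libraries within each caste lay close together. The log2 change was 2.93 ± 0.19 (SE; edgeR, adjusted p = 6.44e-05).

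A4 had 28172 and 40240 expected counts in queens, against 1558 and 2931 in foragers and 1125 and 1900 in nurses, or 1820 and 2610 scaled CPM in queens, against 95.6 and 204 in foragers and 104 and 144 in nurses. Again the lowest queen library was above the highest worker library. Its log2 change was 4.02 ± 0.32 (SE; edgeR, adjusted p = 1.73e-04). All 3 members therefore passed the threshold (adjusted p under 0.01 and a log2 change over 1 in size) on the side of the queens, while 964 of 9932 genes tested passed it in either direction (9.71%) and 683 were higher in queens (6.88%). Leaving out queen 2 lowered the number of genes called to 472, and no library left out in turn ended the call of a member between queens and workers.

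**Figure D1:**
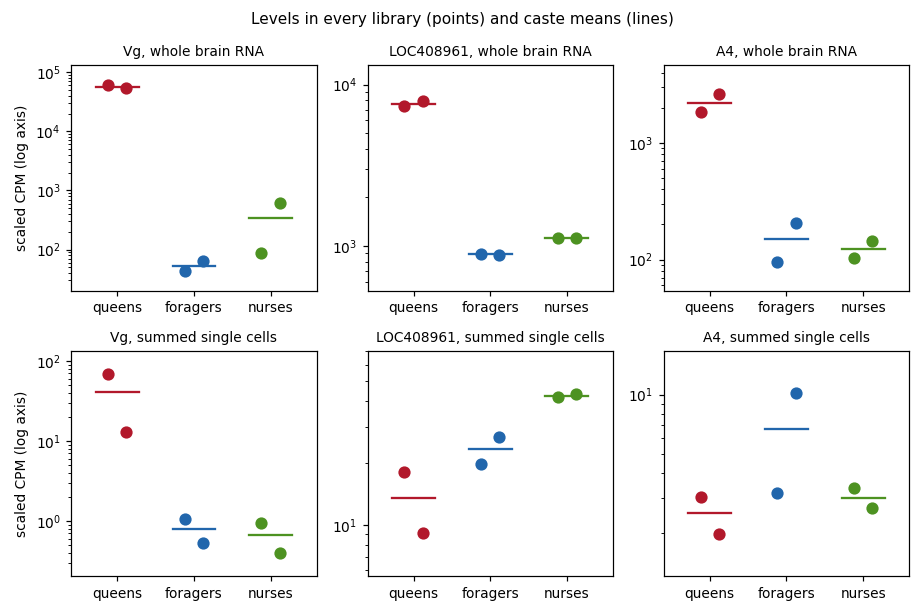
Each point is 1 library and each line the mean of a caste, for whole brain RNA (top row) and for UMIs summed over all single cells (bottom row), in scaled CPM on a log axis. In whole brain RNA the queens lie above all workers for all 3 genes, whereas in summed cells this holds for Vg only and the highest levels of LOC408961 are those of the nurses.

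The same order was seen when queens were set against each kind of worker. In bulk the log2 changes of Vg, LOC408961 and A4 were 10.06, 3.1 and 3.89 against foragers (edgeR, adjusted p = 0.00139, 2.60e-04 and 0.00106), and 7.37, 2.77 and 4.16 against nurses (edgeR, adjusted p = 0.00337, 4.32e-04 and 8.85e-04). Of all genes, 5.86% were called higher in queens against foragers and 5.11% against nurses. These comparisons share the queen libraries and are not independent. Among the members the Vg call was the less stable one: against foragers its adjusted p was 0.0186 without forager 1 and 0.0165 without forager 2, and against nurses it was 0.0117 without queen 2. Without nurse 2 the Vg change against nurses was 9.35.

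No member passed between foragers and nurses in bulk. The log2 change of foragers over nurses was -2.69 ± 0.84 for Vg (SE; edgeR, adjusted p = 0.267), -0.33 ± 0.22 for LOC408961 (adjusted p = 0.555) and 0.27 ± 0.38 for A4 (adjusted p = 0.783). Only 1 of 9932 genes passed in this comparison (0.0101%), and 1327 had an unadjusted p under 0.05. The Vg value rested mainly on nurse 2, whose 7929 expected counts were far above the 946 of nurse 1, and it was -0.71 without that library.

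Hexamerins and other markers moved with these differences in part. The summed level of 4 hexamerin genes used as fat body markers was 241 and 456 CPM in queens, against 70.2 and 61.1 CPM in foragers and 105 and 481 CPM in nurses, and none of the 4 was at 0 in a bulk library. Hex70a alone had 2794 and 5596 expected counts in queens, against 128 and 205 in foragers and 900 and 4785 in nurses, with a log2 change of 2.45 between queens and workers (edgeR, adjusted p = 0.0149) and of 3.16 without nurse 2 (edgeR, adjusted p = 0.00129). Nurse 2, the worker library with most Vg, was thus also the worker library with most Hex70a, and its level reached that of the queens. The other hexamerins were not called in bulk and did not all change in the same direction. Hex70b was at 0.52, Hex70c at -0.70 and Hex110 at -1.65 (edgeR, adjusted p = 0.0731, 0.594 and 0.0652). The 6 hemocyte markers summed to 1970 and 1626 CPM in queens, against 1420 and 1471 CPM in foragers and 1018 and 1708 CPM in nurses. The part of fat body, gland or blood cell RNA in the members' differences was not tested, and in whole brain RNA more cells that hold a transcript and more transcript per cell cannot be told apart.

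Ratios among the members were also taken within each library, as a description, since no p below 0.0667 can be reached with these libraries. The log2 ratio of Vg to LOC408961 within a library was 3.06 and 2.76 in queens, against -4.36 and -3.80 in foragers and -3.67 and -0.89 in nurses. The queens' mean exceeded the workers' by 6.09, and the same difference was 4.96 for Vg over A4 and 1.13 for A4 over LOC408961. Without nurse 2 the first 2 were 6.85 and 5.73. In an exact two-sided permutation test over the 15 ways to split 6 libraries, the first 2 differences gave p = 0.0667, the smallest value this design allows (0.10 after adjustment over 6 ratio tests), and the last gave p = 0.133 (adjusted 0.16). In the summed cells the differences were 6.76 for Vg over LOC408961, 6.22 for Vg over A4 and 0.54 for A4 over LOC408961, with exact permutation p = 0.0667, 0.0667 and 0.60.

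Single-cell sums gave another picture: Vg was again higher in queens, but LOC408961 and A4 were not. Summed over the kept cells, Vg had 9587 and 1555 UMIs in queens 1 and 2, against 123 and 60 in foragers and 105 and 47 in nurses. The scaled levels were 69.0 and 12.9 scaled CPM in queens, against 1.05 and 0.52 in foragers and 0.95 and 0.40 in nurses. Both queen libraries were above all workers, although queen 1 had a much higher level than queen 2. The log2 change between queens and workers was 5.82 ± 0.65 (SE; edgeR, adjusted p = 0.00114), and it was 4.16 without queen 1 and 6.57 without queen 2. The 4 hexamerins summed to 19.2 and 17.2 CPM in these queen cells, against 12.1 and 14.9 CPM in foragers and 9.75 and 6.05 CPM in nurses, with Hex70c at 0 in forager 1, and their part in the Vg difference was not tested.

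LOC408961 had 2503 and 1098 UMIs in queens, against 2319 and 3072 in foragers and 4626 and 5158 in nurses, or 18.0 and 9.13 scaled CPM in queens, against 19.8 and 26.9 in foragers and 41.8 and 43.5 in nurses. The queens were the lowest libraries and the nurses the highest, with no overlap between castes. The log2 change of queens over workers was -1.22 ± 0.26 (SE; edgeR), and its adjusted p of 0.01003 lay just outside the threshold of 0.01. It passed when queen 1 was left out (-1.77, edgeR adjusted p = 0.00288) and was -0.81 when queen 2 was left out. Against nurses alone LOC408961 was lower in queens (-1.65 ± 0.29, edgeR adjusted p = 0.00664), as were 6.0% of all genes, a call that was lost without nurse 1 (adjusted p = 0.0323) or nurse 2 (adjusted p = 0.0408).

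A4, the exchangeable apolipoprotein, had 423 and 236 UMIs in queens, against 369 and 1172 in foragers and 371 and 316 in nurses. Its scaled levels were 3.04 and 1.96 scaled CPM in queens, against 3.16 and 10.2 in foragers and 3.35 and 2.66 in nurses. Queens overlapped with workers, and forager 2 alone stood out. The log2 change of queens over workers was -0.84 ± 0.45 (SE; edgeR, adjusted p = 0.166). Thus 1 of 3 members passed in the summed cells, where 1721 of 11158 genes were called (15.4%), 987 of them higher (8.85%) and 734 lower in queens (6.58%). That count of genes fell to 637 when queen 1 was left out.

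No member passed between foragers and nurses in the summed cells. The log2 changes of foragers over nurses were 0.24 ± 0.84 for Vg, -0.87 ± 0.29 for LOC408961 and 1.16 ± 0.50 for A4 (SE; edgeR, adjusted p = 0.893, 0.131 and 0.211). In this comparison 9 of 11158 genes were called (0.0807%), and 2684 had an unadjusted p under 0.05. Both nurse libraries lay above both forager libraries for LOC408961.

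The queen difference itself was compared between the assays in one fit over all 12 libraries. The log2 change of queens over workers was larger in bulk than in summed cells by 4.18 ± 0.36 for LOC408961 (SE; edgeR, adjusted p = 2.92e-05) and by 4.90 ± 0.64 for A4 (SE; edgeR, adjusted p = 4.15e-04). For Vg the difference between assays was 2.93 ± 1.10 and did not pass (SE; edgeR, adjusted p = 0.0680). Over all genes, 1613 of 11045 passed this test (14.6%). Dissection, dissociation and library chemistry differ between the assays and cannot be told apart.

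**Figure D2:**
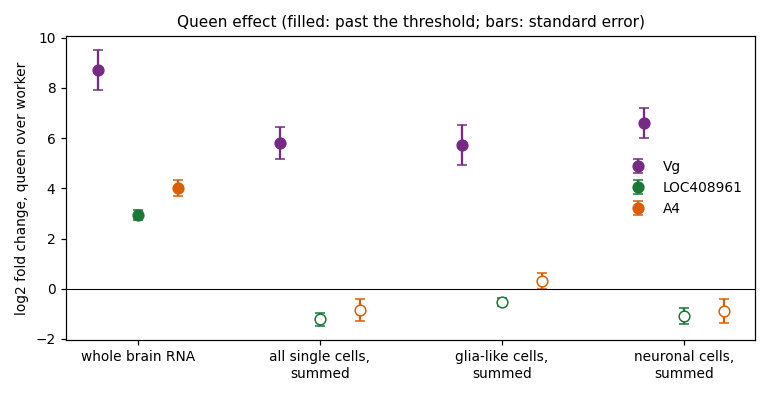
Points are log2 changes of queens over workers and bars their standard errors, for each member in whole brain RNA and in UMIs summed over all cells, glia-like cells and neuronal cells. Filled points passed the threshold: all 3 genes in whole brain RNA, but Vg alone in the 3 sets of cells, where LOC408961 is below 0.

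Within single cells the members were found unequally often. A Vg UMI was found in 20.6% and 5.51% of cells in queens 1 and 2, against 0.375% and 0.243% in foragers and 0.205% and 0.184% in nurses. After each cell was thinned to 2000 UMIs, these shares were 8.99% and 2.12% in queens, against 0.183% and 0.11% in foragers and 0.0829% and 0.0823% in nurses. The thinning left out 440 and 1703 cells in queens and 299 in forager 1, and none in the other libraries. Most cells with Vg had it only once: 82.6% and 90.8% of such cells in queens 1 and 2 held a single UMI.

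LOC408961 was found in 8.41% and 3.87% of queen cells, against 8.89% and 9.66% of forager cells and 15.1% and 14.0% of nurse cells. At 2000 UMIs per cell the shares were 3.64% and 1.57% in queens, against 4.35% and 4.79% in foragers and 7.54% and 7.19% in nurses. The order of the castes was the same as in the sums. For A4 the thinned shares were 0.699% and 0.394% in queens, against 0.831% and 2.43% in foragers and 0.768% and 0.630% in nurses (unthinned 1.84% and 1.21%, against 1.81% and 5.21% and 1.75% and 1.48%).

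Cells were then grouped by clustering without the members and without other caste-dependent genes. Of the clusters, 3 were glia-like by the markers repo, ebony, GlnS, Tret1, Idgf4, Tsf1 and others, 1 was hemocyte-like by hml, PPO and Col4a1, and the remaining cells were taken as neuronal. One large cluster among the latter, cluster 1 with 8959 cells, matched no class and is given apart. Differences between classes of the same cells are described and carry no test.

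LOC408961 had a higher level in glia-like than in neuronal cells in every library. Its level in glia-like cells was 180 and 129 CPM in queens, against 200 and 204 CPM in foragers and 317 and 321 CPM in nurses. In neuronal cells it was 12.9 and 5.54 CPM in queens, against 14.8 and 17.7 CPM in foragers and 26.9 and 25.1 CPM in nurses. The far more numerous neuronal cells nevertheless held 72.1% and 60.1% of all LOC408961 UMIs in queens, against 71.2% and 63.0% in foragers and 60.6% and 51.1% in nurses. Glia-like cells made up 3.42% and 4.49% of cells in queens, against 4.66% and 5.72% in foragers and 7.01% and 9.10% in nurses. The castes thus had the same order in this share as in the summed LOC408961 levels. The part of cell composition in those sums was not tested. At 2000 UMIs per cell, LOC408961 was found in 22.9% and 16.0% of glia-like cells in queens, against 21.9% and 19.0% in foragers and 28.6% and 26.2% in nurses. Kenyon-like cells, neurons of the mushroom body, were assumed here, without a test, to lack the gene. Their shares were 2.66% and 0.914% in queens, against 3.27% and 3.16% in foragers and 5.23% and 4.21% in nurses. Median depths were 2262 to 3403 UMIs in glia-like cells, and 5832.5 and 7707 UMIs in Kenyon-like cells of queens. Thinning left out 66 of 687 and 288 of 753 glia-like cells in queens 1 and 2, and 48 of 894 in forager 1.

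A4 was also higher in glia-like cells, at a much lower level. It had 14.9 and 14.9 CPM there in queens, against 11.1 and 21.6 CPM in foragers and 14.1 and 8.14 CPM in nurses. In neuronal cells it had 2.62 and 1.54 CPM in queens, against 2.97 and 9.61 CPM in foragers and 2.79 and 2.40 CPM in nurses. Glia-like cells were above neuronal cells in each of the 6 libraries, by least in forager 2. Even so, neuronal cells, which were far more numerous, held at least 78.0% of all A4 UMIs in every library. Cluster 1, which is part of these neuronal cells, lay near the glia-like levels. It had 16.6 and 9.69 CPM in queens, against 10.1 and 23.9 CPM in foragers and 9.50 and 5.97 CPM in nurses.

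Vg in queens was spread over all classes. In glia-like cells it had 326 and 33.5 CPM in queens, against 15.3 and 2.0 CPM in foragers and 1.58 and 2.29 CPM in nurses. In neuronal cells it had 59.1 and 11.6 CPM in queens, against 0.636 and 0.430 CPM in foragers and 0.278 and 0.276 CPM in nurses. In the few hemocyte-like cells (163 and 34 in queens) it had 88.3 and 219 CPM in queens, against 18.3 and 4.69 CPM in foragers and 499 and 0 CPM in nurses. In nurse 1 a single cell held all 67 of these UMIs, and in nurse 2 the 0 of 63203 UMIs allow up to 58.4 CPM (exact Poisson interval, counting error only). The unnamed cluster 1 had the most in queen 1, 841 CPM, with 116 CPM in queen 2, against 0.800 and 0.840 CPM in foragers and 0.345 and 1.99 CPM in nurses. At 2000 UMIs per cell, Vg was detected in 12.8% and 4.35% of the glia-like cells in queens 1 and 2, beside 16.2% and 11.8% of their hemocyte-like and 8.29% and 1.74% of their Kenyon-like cells. The glia-like and hemocyte-like shares lay above the Kenyon-like ones in both queen libraries. Reading the Kenyon-like shares as background is an assumption that was not tested, and the richest such cell of queen 1 held 297 Vg UMIs. In cluster 1 the shares were 18.4% and 3.98%, after the thinning left out 246 of 754 and 1163 of 1683 cells. The class levels of Vg depended on few cells: 1 glia-like cell held 975 of the 1187 glia-like UMIs of queen 1. Without cells of 10 or more Vg UMIs, queens 1 and 2 had 49.5 and 18.4 CPM in glia-like, 88.3 and 89.4 CPM in hemocyte-like, 34.2 and 7.71 CPM in neuronal cells and 100.4 and 28.8 CPM in cluster 1.

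**Figure D3:**
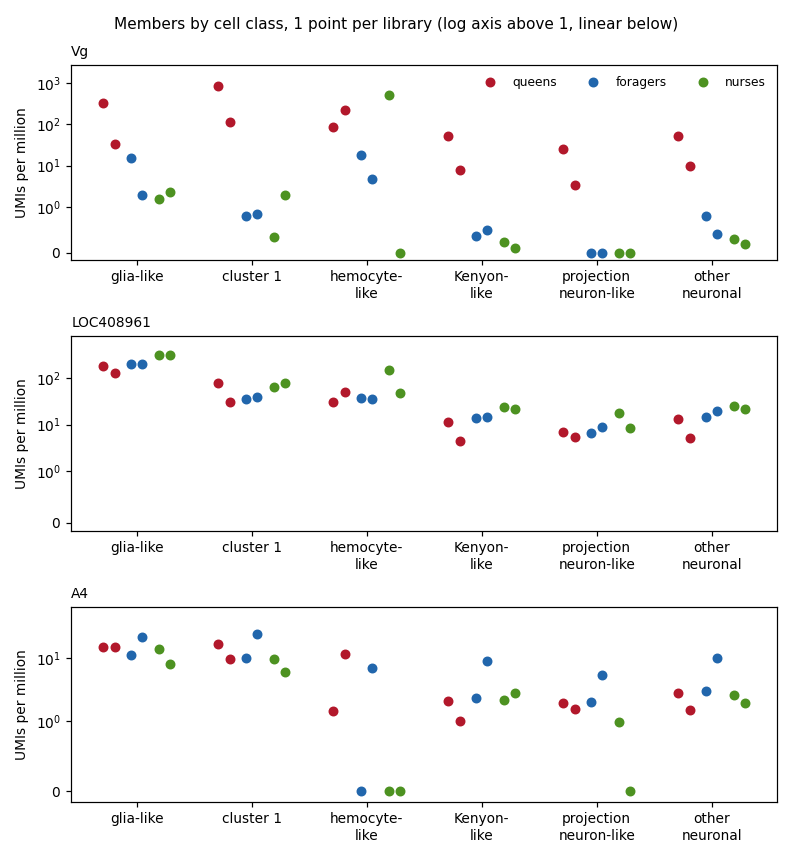
Each point is the level of 1 library in 1 cell class, in CPM on an axis that is logarithmic above 1 and linear below. LOC408961 is highest in glia-like cells in all castes, whereas Vg is higher in both queen libraries than in every worker library in each class except the hemocyte-like one.

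The queen difference was also tested within classes. In glia-like cells Vg was higher in queens (5.74 ± 0.80, SE; edgeR, adjusted p = 0.00144), LOC408961 was at -0.53 ± 0.16 (adjusted p = 0.0334) and A4 at 0.31 ± 0.32 (adjusted p = 0.521). There 854 of 9249 genes were called (9.23%), 531 of them higher in queens (5.74%). The Vg call was lost without nurse 1 (adjusted p = 0.0112) or without nurse 2 (adjusted p = 0.0135), and its value was 3.26 without queen 1. Without the cells of 10 or more Vg UMIs, a choice made after seeing the data, Vg was at 3.98 (edgeR, adjusted p = 3.36e-04) and LOC408961 passed at -0.66 (edgeR, adjusted p = 0.00694). Leaving these cells out lowered queen 1 from 326 to 49.5 CPM for Vg and from 180 to 153 CPM for LOC408961. The choice by itself thus moved both changes down. The fit without nurse 2 called 183 genes.

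In neuronal cells Vg was higher in queens (6.60 ± 0.60, SE; edgeR, adjusted p = 5.69e-04), LOC408961 was at -1.08 ± 0.31 (adjusted p = 0.0267) and A4 at -0.89 ± 0.46 (adjusted p = 0.158). There 1831 of 11111 genes were called (16.5%), 1036 of them higher in queens (9.32%), and 718 were called without queen 1. Whether the queen difference differs between glia-like and neuronal cells was tested in one fit: the difference of differences was 1.15 ± 0.31 for A4, 0.56 ± 0.16 for LOC408961 and -1.16 ± 0.43 for Vg (SE; edgeR, adjusted p = 0.0282, 0.0363 and 0.0915). None passed at 0.01, where 5.56% of 11166 genes did. Without cells of 10 or more Vg UMIs, a choice made on the Vg counts themselves, that of Vg was -1.81 (edgeR, adjusted p = 0.00216). In queen 1 this choice lowered Vg from 326 to 49.5 CPM in glia-like cells and from 59.1 to 34.2 CPM in neuronal cells. The choice thus bears on the difference by itself, and no conclusion is drawn from that fit. Without queen 1, A4 (1.61, edgeR adjusted p = 0.00260) and LOC408961 (1.01, edgeR adjusted p = 2.56e-06) passed, whereas with classes taken by repo UMIs LOC408961 was at -0.09 (edgeR, adjusted p = 0.918).

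Among 8 subclusters of the glia-like cells, the members had different peaks. Subcluster 5 held 358 cells with the astrocyte markers ebony and GlnS, the transporters Gat-a and Eaat-2 and the gland genes Mrjp1 to Mrjp5. LOC408961 was highest in these cells. There it had 1115 and 1910 CPM in queens, against 913 and 1688 CPM in foragers and 1819 and 2372 CPM in nurses. It was the next highest in subcluster 6, 356 cells with Idgf4, Tsf1, wrapper and zyd, at 536 and 516 CPM in queens, against 338 and 712 CPM in foragers and 976 and 575 CPM in nurses. Queens overlapped with workers in both subclusters.

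A4 was highest in subcluster 3, 399 cells with Tret1 and vkg, markers of surface glia, and with Idgf4 and Tsf1. These cells also had the hemocyte markers Fer2LCH and Ppn and the gland genes Mrjp7 and Hbg3. The antimicrobial peptide genes Apid1 and Def1 were among their leading genes. A4 had 32.0 and 33.5 CPM there in queens (24 and 29 UMIs), against 92.4 and 90.1 CPM in foragers (13 and 45 UMIs) and 85.7 and 55.8 CPM in nurses (41 and 21 UMIs). In the same cells LOC408961 was at its lowest of the 8 subclusters with libraries pooled, at 4.0 and 2.31 CPM in queens, against 14.2 and 18.0 CPM in foragers and 18.8 and 47.8 CPM in nurses. In subcluster 5 A4 had 0 to 9 UMIs per library and, with libraries pooled, 8.49 CPM, which ranked at 4 of the 8 subclusters. The subcluster richest in LOC408961 was thus not the one richest in A4, in queens or in workers.

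Subcluster 0 held 2247 cells with markers of several kinds: Idgf4, Tsf1, the astrocyte marker GlnS, wrapper, photoreceptor genes and gland genes. The gland genes were Mrjp1, Mrjp2, Mrjp3, Mrjp5 and Mrjp7. In queens Vg had its highest level in subcluster 0, at 1631 and 83.3 CPM, while workers there had at most 6.93 CPM. A single cell held 975 of the 1045 Vg UMIs of queen 1. With the few cells of 10 or more Vg UMIs left out, the level was 110 and 40.2 CPM in queens, and in queen 1 subcluster 5 was then higher, at 164 CPM. In forager 1, 41 of the 51 glia-like Vg UMIs were in subcluster 1, and 36 of them in 1 cell that was marked as a doublet.

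**Figure D4:**
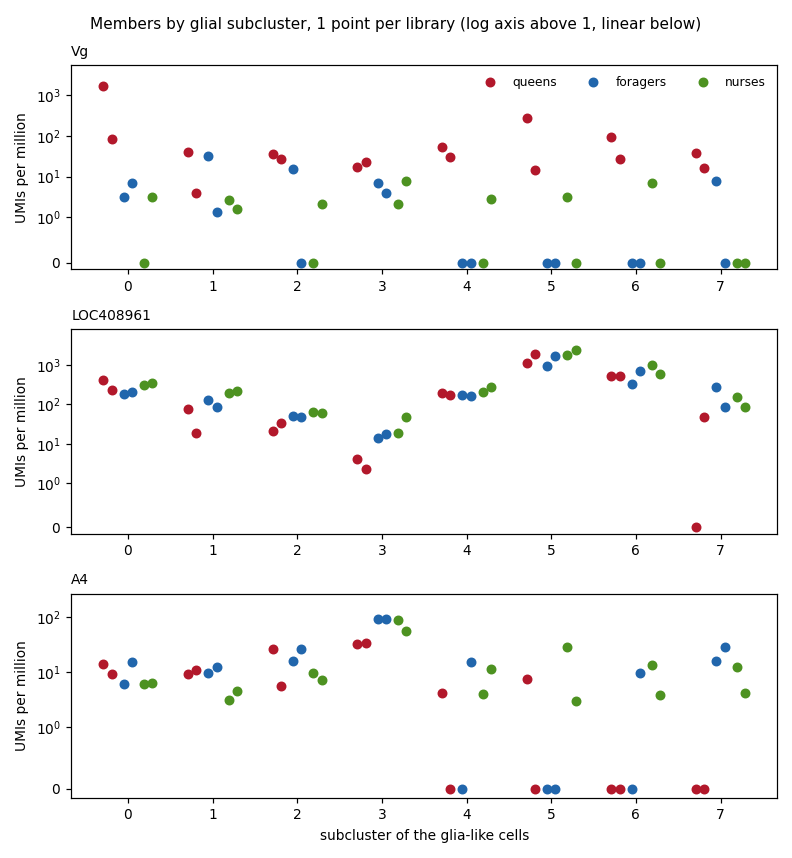
Each point is the level of 1 library in 1 of the 8 subclusters of glia-like cells, in CPM on an axis that is logarithmic above 1 and linear below. LOC408961 peaks in subcluster 5, A4 in subcluster 3 and, in queens, Vg in subcluster 0, where 1 cell held 975 of the 1045 UMIs of queen 1.

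Vg in queens was concentrated in few cells. In queens 1 and 2, 49 and 12 cells had 10 or more Vg UMIs and held 47.0% and 35.6% of all Vg UMIs of their library, against 1 such cell each in forager 1 and nurse 1 and none in the other worker libraries. The 61 queen cells lay in 24 clusters: 6 were glia-like, 1 was hemocyte-like, 12 were in cluster 1, and 5 were marked as doublets. The cell of nurse 1 was hemocyte-like and held 67 UMIs, or 63.8% of the Vg UMIs of that library.

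These queen cells, chosen by their Vg UMIs after the values were seen, also held the other members. Their LOC408961 level was 892 CPM, against 12.1 CPM in the other queen cells, and in a ranking of 12292 features by the log2 ratio of the levels (with 5 CPM added) it ranked at 2, after Vg itself, with 370 UMIs in 45 of 61 cells. A4 had 174 CPM in them, against 2.19 CPM in the other queen cells, and ranked at 8, with 72 UMIs in 24 cells. Hex70a, a hexamerin, ranked at 13 with 101 CPM, against 1.11 CPM, whereas Hex110 had 7.23 CPM, against 9.06 CPM.

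LOC408961 and A4 were highest in the queen cells with 10 or more Vg UMIs in each queen library. In queen 1, LOC408961 had 15.2 CPM in cells with no Vg UMI, 14.4 with 1, 22.8 with 2 to 9, 180 with 10 to 99 and 2952 with 100 or more. In queen 2 the corresponding levels were 8.13, 8.91, 30.3, 793 and 4020 CPM. A4 had 2.67, 2.29, 2.20, 18.4 and 533 CPM in these classes in queen 1, and 1.64, 2.81, 7.12, 135 and 1627 CPM in queen 2. In queen 1 A4 was thus no higher below 10 Vg UMIs than in cells with none, whereas in queen 2 both genes were also somewhat higher in cells with 1 and with 2 to 9.

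The 17 queen cells with 100 or more Vg UMIs had a median of 2950 UMIs each and came from both libraries (15 and 2 cells). LOC408961 was found in all 17 and A4 in 16 of them, at 3074 and 659 CPM, and Hex70a in 11 at 362 CPM. The other hexamerins were near absent: in the 15 cells of queen 1, Hex70b had 3 UMIs, Hex110 had 2 and Hex70c had 0. In the 2 cells of queen 2 each of these had 0. Of these cells, 7 were in cluster 1, 1 was glia-like and none was marked as a doublet. The hemocyte marker hml had 1 UMI in them and the glial marker repo had 5 UMIs in 4 cells.

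**Figure D5:**
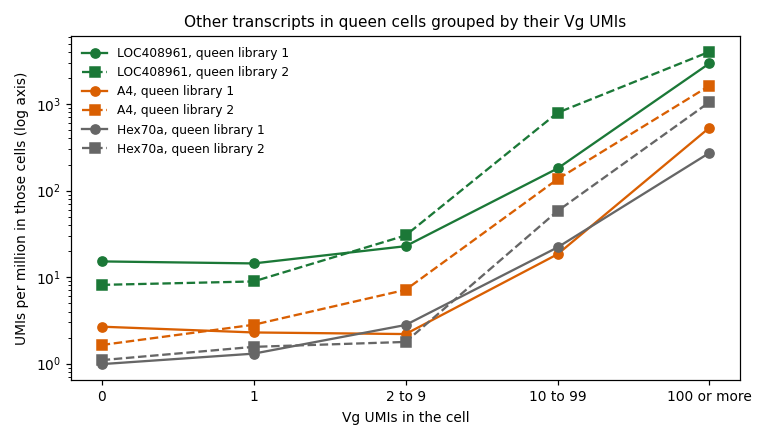
Levels of LOC408961, A4 and Hex70a in queen cells grouped by their number of Vg UMIs, in CPM on a log axis, with a line for each queen library. All 3 transcripts are low in cells with 0 or 1 Vg UMI and reach 273 to 4020 CPM in cells with 100 or more. The hexamerins Hex70b, Hex70c and Hex110 are not drawn.

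Cells rich in LOC408961 were mostly glia-like in queens and in workers. Of 34 queen cells with 10 or more LOC408961 UMIs, 20 were glia-like (58.8%), 12 of them in subcluster 5, and 13 also had 10 or more Vg UMIs. Of 136 such worker cells, 122 were glia-like (89.7%), 54 of them in subcluster 5, and 1 had 10 or more Vg UMIs. When the cells with 10 or more Vg UMIs were left out, a choice made after seeing the data, the log2 change of LOC408961 between queens and workers in the summed cells was -1.37 and passed the threshold (edgeR, adjusted p = 0.00567), and that of Vg was 5.53. The choice removed 61 queen cells, which held 370 LOC408961 UMIs, and 2 worker cells, so it moved both changes down by itself.

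Cells with more than 1 member were counted as well. Vg and LOC408961 were both found in 393 and 58 cells in queens, against 10 and 4 in foragers and 8 and 8 in nurses, or 9.52% and 6.28% of the cells with Vg in queens, against 13.9% and 7.84% in foragers and 21.1% and 22.2% in nurses. LOC408961 itself was found in 8.41% and 3.87% of all cells in queens, against 8.89% and 9.66% in foragers and 15.1% and 14.0% in nurses. LOC408961 and A4 were found together in 45 and 10 cells of queens, against 36 and 106 cells of foragers and 51 and 43 cells of nurses. Of cells with A4, 12.2% and 4.93% also had LOC408961 in queens, against 10.4% and 9.70% in foragers and 15.7% and 14.8% in nurses, in each library above its share of all cells, though barely in forager 2. Within glia-like cells these shares were 14.6% and 2.56% in queens, against 17.2% and 31.8% in foragers and 26.4% and 28.8% in nurses, below the share of all glia-like cells with LOC408961 in each library except forager 2.

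A4 in forager 2 stood apart from the other worker libraries in cells of nearly all kinds. In Kenyon-like cells it had 8.81 CPM there, against 2.32 CPM in forager 1 and 2.13 and 2.75 CPM in nurses. In the unnamed cluster 1 it had 23.9 CPM, against 10.1 CPM in forager 1 and 9.50 and 5.97 CPM in nurses. In glial subcluster 3, where A4 was highest, it did not stand apart (90.1 CPM, against 92.4 CPM in forager 1 and 85.7 and 55.8 CPM in nurses). The bulk library forager 2, a separate pool, was likewise the worker library with most A4, at 204 scaled CPM. Its single-cell median depth was the lowest of the 6 libraries, at 4531.5 UMIs.

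Of 7 other genes for lipoprotein receptors, fatty acid binding proteins, sterol transporters and apolipoprotein D, none was higher and 1 was lower in queens in bulk, with a median log2 change of -0.41 beside -0.01 over all genes, of which 2.83% were lower. The gene that fell was Fabp, a fatty acid binding protein, with 7990 and 5544 expected counts in queens, against 33448 and 26379 in foragers and 10342 and 16437 in nurses (-1.74 ± 0.23, SE; edgeR, adjusted p = 0.00191). In the summed cells 3 of 7 were lower in queens, beside 6.58% of all genes, and none was higher, beside 8.85%, with a median of -0.41 beside 0.00 over all genes. These were the sterol carrier NPC2 homolog LOC725038 (-1.10), the apolipoprotein D gene LOC409278 (-1.09) and a fatty acid binding protein (-2.80). In glia-like cells LOC409278 was the single one of 7 that was called, and there it was higher in queens, as were 5.74% of all genes (0.75 ± 0.15, SE; edgeR, adjusted p = 0.00752).

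Genes for hormones tied to vitellogenin were also followed, because juvenile hormone and vitellogenin control each other in bees and insulin signals join nutrition to both. Of 7 such genes, 2 were higher in queens in bulk, beside 6.88% of all genes, and none was lower, beside 2.83%, with a median log2 change of -0.07. Jhe, whose product breaks down juvenile hormone, had 6246 and 8405 expected counts in queens, against 154 and 154 in foragers and 182 and 589 in nurses (4.75 ± 0.34, SE; edgeR, adjusted p = 1.13e-04). ILP-2, an insulin-like peptide, had 294 and 428 in queens, against 146 and 98 in foragers and 72 and 84 in nurses (1.70 ± 0.21, SE; edgeR, adjusted p = 0.00134). In the summed cells 0 of 7 were called, beside 15.4% of all genes, and Jhe and ILP-2 were at -0.20 ± 0.16 and -0.18 ± 0.17 (SE; edgeR, adjusted p = 0.334 and 0.415). Jhe thus resembled LOC408961 and A4 in being higher in queens in bulk and not in the summed cells.

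The genes most like each member over the 6 bulk libraries, by Pearson's r of log2(CPM + 1) among 8184 genes, were LOC724899 and Jhe (both 0.998), LOC725422 (0.997), LOC552377 and LOC102654964 (both 0.996) for Vg. For LOC408961 they were LOC409474, LOC100576949 and LOC100577149 (each 0.999), ACSF2 and LOC408953 (both 0.998). For A4 they were LOC408788 (0.999), LOC413631 (0.997), LOC552588 and LOC726493 (both 0.996) and LOC551897 (0.995). Among themselves the members had r = 0.969 for Vg with LOC408961, 0.947 for Vg with A4 and 0.979 for LOC408961 with A4. Over 40 cell clusters LOC408961 was closest to LOC725960 (0.977), LOC410982 (0.972), LOC727408 (0.968), LOC551628 (0.967) and LOC408695 (0.964). Vg was closest to LOC408666 (0.749), LOC408369 (0.735), LOC412487 (0.727), LOC724211 (0.717) and LOC409822 (0.712), with r = 0.633 between Vg and LOC408961. These values describe libraries and clusters that share depth and caste, and A4 was too low in the clusters for the comparison.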

How the data were processed

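Whole brain RNA and dissociated brain cells of queens, foragers and nurses were measured in 12 samples. For bulk libraries the authors trimmed reads with Trimmomatic (0.39), aligned them with STAR to Amel_HAv3.1 and deposited a matrix of expected counts from RSEM, which were rounded to whole numbers here. For single cells the authors deposited UMI counts per gene and barcode from Cell Ranger (3.1.0). Tool versions of the authors are from the submitters' processing notes. Cells with 200 to 5000 genes, at least 500 UMIs, UMIs below the third quartile plus 1.5 interquartile ranges and under 15% mitochondrial UMIs were kept, following the study's methods, which left 115169 of 141510 barcodes.

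UMIs were summed per library, since cells are not replicates. Each table was tested with edgeR (4.0.16, R 4.3.3) by the quasi-likelihood test with TMM scaling, filterByExpr, all 3 castes in one fit, and Benjamini-Hochberg adjustment over all genes tested. Genes were called at an adjusted p below 0.01 and an absolute log2 change above 1 (bulk) or 0.5 (cells), except for differences of differences, which had no limit on size. Workers are the mean of foragers and nurses. The scripts were tested on simulated data. Cells were clustered with leidenalg (0.10.2) at resolution 1, and glia-like cells again at 0.2, without the members and other caste-dependent genes. Classes were named from marker lists, and cells resembling simulated doublets (5.52% to 7.73% per library) were marked but kept. Ratios used exact permutation tests.

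The text names the 3 members, the 5 genes most like each by Pearson's r of log2(CPM + 1) among genes of at least 5 CPM on average (over bulk libraries, and over clusters of at least 200 cells), and called genes of lists of lipid carrier partners and of hormone and nutrient genes taken by description. Genes singled out otherwise (hexamerins, cluster leaders) were chosen after their values were seen. The members and lists were chosen with earlier results of these data known. Alternatives were DESeq2 (1.42.0), RLE scaling, scaling without royal jelly protein genes, no filter, a replicate block, each library left out, all barcodes, doublets removed, other class definitions, a 2-UMI detection limit and, chosen after seeing the data, leaving out cells with 10 or more Vg UMIs or cluster 1.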

Additional observations from a re-analysis of the deposited data

Results flagged for a closer look

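The queen difference of A4 was larger in whole brain RNA than in summed cells by 4.90 on the log2 scale, and that of LOC408961 by 4.18, both past the threshold in the test of the difference between assays. Vg in the bulk library nurse 2, at 601 scaled CPM, stood far from the other 3 worker libraries (43.3 to 87.4 scaled CPM), and it also had the most Hex70a of the workers. A4 in the single-cell library forager 2 was at 10.2 scaled CPM, far from the other workers (2.66 to 3.35 scaled CPM), and in neuronal cells alone it was at 9.68 scaled CPM. Vg in the glia-like cells of forager 1 was at 14.3 scaled CPM, and 36 of the 51 UMIs lay in 1 cell marked as a doublet. For these samples the gap to the nearest worker library, divided by the range of the 4 workers, exceeded Dixon's 95% limit of 0.829. The 4 workers pool foragers and nurses, and chance alone flags about 1 in 20 such groups.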

How the results depend on the processing

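For LOC408961 in summed cells the change (-1.22) did not pass in the main fit, and in 3 of 7 other settings it did not pass either. It passed with DESeq2 (-1.22), RLE scaling (-1.22), no filter (-1.22) and without cells of 10 or more Vg UMIs (-1.37), a choice that itself lowers queens. Over the libraries left out it ranged from -1.77 to -0.81. In glia-like cells it passed when cells were taken by repo UMIs (-1.09) or without cells of 10 or more Vg UMIs (-0.66) and ranged from -0.81 to -0.31, and in neuronal cells it passed with DESeq2 (-1.08) and ranged from -1.83 to -0.59. Vg ranged from 4.16 to 6.57 in summed cells and from 3.26 to 6.65 in glia-like cells. The glia-like minus neuronal difference ranged from 0.82 to 1.61 for A4 and from 0.25 to 1.01 for LOC408961, which was -0.09 with the repo choice. That of Vg was -1.81 without Vg-rich cells, a choice made on the Vg counts that bears on this difference by itself. Genes called ranged from 472 to 883 in bulk, 637 to 1645 in summed cells, 183 to 950 in glia-like cells and 718 to 1747 in neuronal cells, and the repo choice called 328. The bulk changes of the members stayed within 8.31 to 9.70 for Vg, 2.88 to 2.98 for LOC408961 and 3.73 to 4.35 for A4 over the libraries left out.

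Counting a cell only from 2 UMIs gave mean shares of 2.05% in queens, 0.0327% in foragers and 0.0207% in nurses for Vg, 1.09%, 1.38% and 3.27% for LOC408961, and 0.125%, 0.206% and 0.113% for A4. Same-numbered libraries of different castes deviated little together within each assay (r from -0.146 to 0.116). These values cannot settle whether the numbers pair libraries, and pairing between the assays was not examined. With the number as a replicate block, the bulk changes were 9.0 for Vg, 2.93 for LOC408961 and 4.05 for A4, those in summed cells 5.54, -1.25 and -0.79, with 800 and 1426 genes called; of the members' calls, that of LOC408961 against nurses in summed cells was lost (-1.68, edgeR adjusted p = 0.0112) and one in glia-like cells was gained (-0.88, edgeR adjusted p = 0.00855). The causes of these changes were not tested. DESeq2 called 1226 genes in bulk and 2324 in summed cells. No member's called change reversed. A4 had few UMIs, 236 to 1172 per library, which limits its precision in cells.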

Other observations

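Other transcripts were also concentrated in the 61 queen cells with 10 or more Vg UMIs, a choice made after seeing the data. After Vg and LOC408961, the ranking was led by CPR14, a cuticular protein gene, with 112 UMIs in 29 cells (270 CPM, against 0.875 CPM in the other queen cells). Obp3, an odorant binding protein gene, had 52 UMIs in 18 cells (125.3 CPM, against 0.407 CPM in the other queen cells). Idgf4 and Tsf1, used in the study to mark ensheathing glia, had 361 and 186 CPM in these cells, against 33.7 and 103 CPM in the other queen cells, and all 17 cells with 100 or more Vg UMIs had Idgf4. The neuron marker elav had 2995 CPM, against 3234 CPM in the other queen cells.

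Tsf1, the gene of an iron carrier of the hemolymph, was higher in queens in bulk, with 245001 and 281312 expected counts in queens, against 98677 and 109303 in foragers and 50401 and 56130 in nurses (log2 change 1.63, edgeR adjusted p = 0.00404). In the summed cells its change was 0.45 (edgeR, adjusted p = 0.123). Idgf4, the other gene used to mark ensheathing glia, was at 1.09 in bulk and not called (edgeR, adjusted p = 0.0101). In the summed cells Idgf4 was lower in queens (-1.08, edgeR adjusted p = 0.00505), as were 6.58% of all genes. Hex70a was called in the summed cells, with 188 and 152 UMIs in queens, against 74 and 98 in foragers and 38 and 39 in nurses (log2 change 1.39, edgeR adjusted p = 0.00433). Hex110 was called there as well, with 1410 and 1017 UMIs in queens, against 760 and 957 in foragers and 296 and 255 in nurses (1.14, edgeR adjusted p = 0.00324). Hex70b was at 0.68 and was not called (edgeR, adjusted p = 0.0756). Of all genes, 8.85% were higher in queens in the summed cells.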
